A study of Mus musculus with 12 samples.

Results

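The genes described here are 91 protein-coding mouse genes of 10 transcription factor families that pattern the embryonic gut and set epithelial identity. They were chosen by gene symbol alone, as the genes named Hox, Fox, Sox (without Sox9), Gata, Klf, Cdx, Hnf, Elf, Grhl or Ovol with a number. Of 142 protein-coding RefSeq genes whose symbols fit these names, 91 stood among the 18926 genes of the deposited tables and 51 were not analysed here. All 91 passed the filter on low counts that left 18053 genes for testing. By family they were 20 Hox, 29 Fox, 11 Sox, 4 Gata, 14 Klf, 1 Cdx, 4 Hnf, 4 Elf, 3 Grhl and 1 Ovol gene.

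Hox genes lie in chromosomal clusters and are switched on in an order along the cluster that gives position along the body and gut axis. Foxa, Gata4, Gata6 and Hnf4 factors open and hold the endodermal program of stomach, liver and intestine, and Cdx2 sets intestinal against gastric identity. Foxf and Foxl factors are best known from the mesenchyme around the gut tube, while Klf, Elf, Grhl and Ovol factors act in the growth, differentiation and barrier of the epithelium.

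RNA was sequenced from 12 libraries, 3 per group, of a mouse gastric cancer cell line. The line came from a tumour of a mouse with conditional Cdh1 F/+, Trp53 F/F and Smad4 F/F alleles and carried Cas9, so all groups share that background. The controls had received a non-target guide, and the other groups were labelled Nf2 knockout, Rasa1 knockout, and Rasa1 and Nf2 knockout together. The labels call the cells monolayer cells, the series title speaks of tumorspheres, and by the study's methods the knockout cells were pooled after selection and not grown from single clones. Nf2 encodes merlin, which restrains YAP, and Rasa1 encodes a GTPase-activating protein that switches off RAS. The question addressed here is how the levels of these factors compared over the 4 groups. Library totals ran from 43818139 to 96674463 counts, and levels are given as counts scaled to library size with the trimmed mean of M-values (CPM). Fold changes are log2 values from a single edgeR model of all genes, and a gene is said to have risen or fallen when its Benjamini-Hochberg adjusted p from the quasi-likelihood test was under 0.05.

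The targeted genes did not follow the labels in every group. Nf2 was at 58.1, 61 and 55.4 CPM in the controls, at 14.3, 13.2 and 13.2 in the Nf2-KO libraries and at 11.6, 11.9 and 12.1 in the libraries labelled Rasa1-KO. In the libraries labelled double-KO it was at 62.6, 57.6 and 56.4 CPM, which overlapped the controls. Rasa1 was at 60.5, 74.9 and 78.5 CPM in the controls, 97.2, 101 and 97.2 in Nf2-KO, 34.5, 30.4 and 30.8 in the libraries labelled Rasa1-KO and 17.7, 20.6 and 23.3 in those labelled double-KO. Both genes were thus low in the libraries labelled Rasa1-KO, and Rasa1 alone was low in those labelled double-KO, while the names of the deposited tables give these groups the other way round. The groups are named below by their sample labels, as labelled Rasa1-KO (low Nf2 and Rasa1) and labelled double-KO (low Rasa1 only). Every value given for one of them belongs to the other if the table names are right.

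The control libraries also differed from one another more than the libraries of the other groups did. Across the 91 factors, the unnumbered control library lay a median of 0.79 log2 units from the mean of the other controls and control 2 lay 0.61 from it, against 0.12 to 0.48 for the 9 knockout libraries. In the unnumbered control 37 factors, and in control 2 33 factors, were more than 2-fold from the mean of the other control libraries. Counts are therefore also given without the unnumbered control. The study describes the libraries of a group as technical replicates, so p-values and SDs measure only the spread between such libraries and not that between separate cultures.

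Of the 91 factors, 43 differed over the 4 groups (47.3%), beside 45.9% of all genes tested. Without the unnumbered control the number was 64, and the share of all genes called by this test in that fit is not given here. Against the controls, 11 rose and 28 fell in Nf2-KO, where 20.4% of all genes rose and 22.1% fell. In the libraries labelled Rasa1-KO 13 rose and 16 fell, beside 19.6% and 22.1% of all genes. In those labelled double-KO 3 rose and 2 fell, beside 3.98% and 2.42%. As shares of the 91, these were 12.1% and 30.8% in Nf2-KO, 14.3% and 17.6% in labelled Rasa1-KO, and 3.30% and 2.20% in labelled double-KO. The median log2 fold change of the 91 was -0.40, -0.16 and -0.11 in the same order, beside -0.070, -0.076 and -0.035 for all genes. Without the unnumbered control the numbers that rose and fell were 15 and 41 in Nf2-KO, 16 and 30 in labelled Rasa1-KO, and 13 and 19 in labelled double-KO, and the shares of all genes were also larger, at 30.6% and 30.9%, 30.2% and 30.2%, and 17.2% and 12.8%.

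Setting the comparisons side by side, which share the control libraries, 10 factors rose and 16 fell in both Nf2-KO and labelled Rasa1-KO, and none rose in one and fell in the other. The matching counts over all genes are not given here, so this agreement is not shown to be particular to these factors. A further 3 factors, Hoxb13, Klf9 and Klf16, passed the test as higher in labelled Rasa1-KO alone, and Gata2 did so in Nf2-KO alone. The Klf9 call was lost without labelled Rasa1-KO 0 or 1. With all 12 libraries none fell by the test in labelled Rasa1-KO without also falling in Nf2-KO, whereas 12 fell in Nf2-KO alone. Among these, only the Nf2-KO calls of Hnf4g, Elf3 and Grhl1 held in all fits without 1 library. Once the unnumbered control was left out, Foxa1, Foxo1, Sox13, Klf12, Hnf4g and Elf3 fell in labelled Rasa1-KO too. Between Nf2-KO and labelled Rasa1-KO themselves, 2 factors passed the test, Elf3 among them, both higher in labelled Rasa1-KO. There 1.90% of all genes were higher than in Nf2-KO and 1.72% lower. The heat map shows the blocks of factors that moved in the groups with low Nf2.

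**Figure D1:**
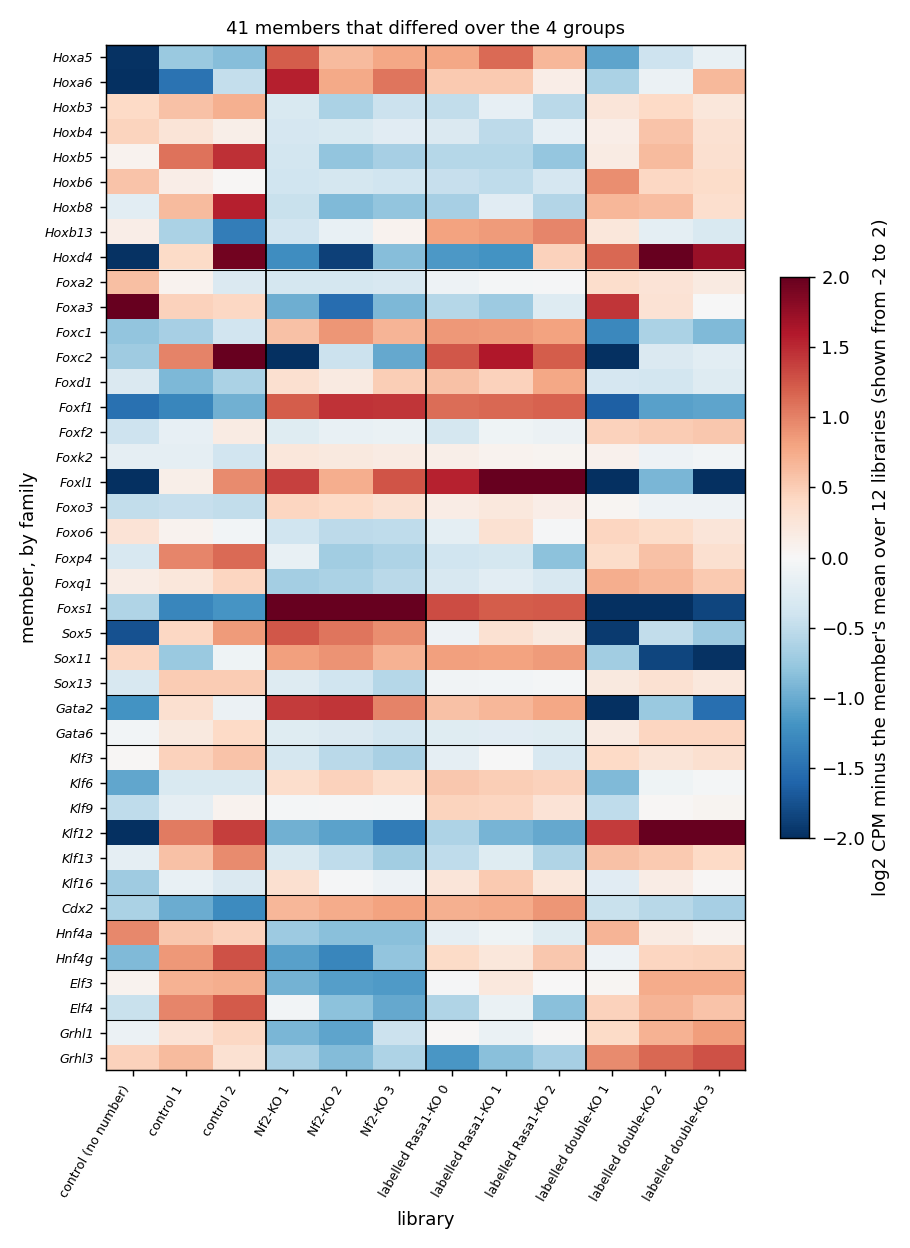
Heat map of 41 factors that differed over the 4 groups by edgeR's quasi-likelihood test (adjusted p under 0.05), one row per factor ordered by family and one column per library. Colour is log2 CPM minus the factor's mean over the 12 libraries, red above and blue below, cut at -2 and 2. The 3 Nf2-KO and the 3 labelled Rasa1-KO columns share most colours, and the control columns differ among themselves.

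**Figure D2:**
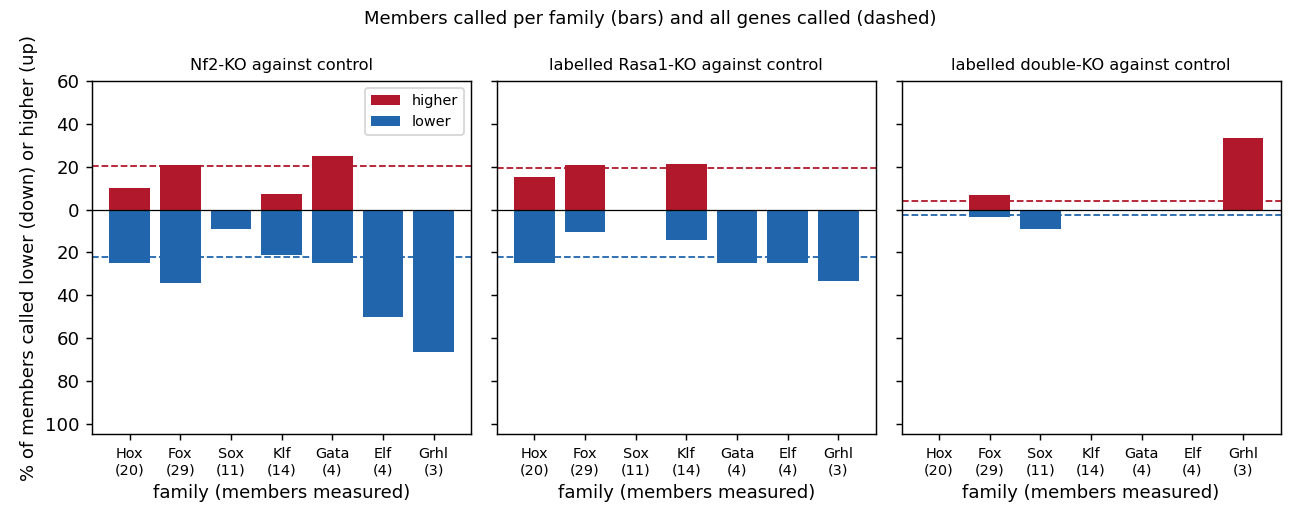
Share of the measured members of each family (Hnf, and Cdx and Ovol with 1 member each, not drawn) that was called higher (upward bars) or lower (downward bars) against control in each group. Dashed lines give the share of all 18053 genes called in that direction, such as 20.4% higher and 22.1% lower in Nf2-KO. Of the 3 Grhl genes Grhl1 and Grhl3 fell in Nf2-KO, and no Sox gene rose in any group with all 12 libraries.

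Promoters of 4 members are shown so that the letters behind the factors most described below can be read. Cdx2 rose most among the gut identity factors, Foxo3 rose in all 3 knockout groups, Klf6 had the highest level of all members in the controls, and Elf3 differed between Nf2-KO and labelled Rasa1-KO. They were picked after their values were seen. RefSeq promoter windows (GRCm38.p6, 250 bases before the start to 50 after it) matched 56 of the 91 members by gene identifier, with 73 windows in all. Each was searched on both strands for GGAATG, the core bound by TEAD factors (the DNA partners of YAP), for TGANTCA, bound by AP-1, and for CTTTGA, bound by TCF/LEF factors. These 3 motifs do not overlap one another in the windows below, where capitals mark each match. The windows are Cdx2 at chr5:147307200-147307499 on the minus strand, Foxo3 at chr10:42276646-42276945 on the minus strand, Elf3 at chr1:135258423-135258722 on the minus strand and Klf6 at chr13:5861239-5861538 on the plus strand.
Cdx2: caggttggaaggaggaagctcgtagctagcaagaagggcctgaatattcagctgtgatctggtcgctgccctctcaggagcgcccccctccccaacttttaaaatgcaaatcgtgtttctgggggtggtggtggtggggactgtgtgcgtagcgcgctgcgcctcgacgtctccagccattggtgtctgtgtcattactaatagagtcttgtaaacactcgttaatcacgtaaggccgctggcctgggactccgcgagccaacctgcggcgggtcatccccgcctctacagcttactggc
Foxo3: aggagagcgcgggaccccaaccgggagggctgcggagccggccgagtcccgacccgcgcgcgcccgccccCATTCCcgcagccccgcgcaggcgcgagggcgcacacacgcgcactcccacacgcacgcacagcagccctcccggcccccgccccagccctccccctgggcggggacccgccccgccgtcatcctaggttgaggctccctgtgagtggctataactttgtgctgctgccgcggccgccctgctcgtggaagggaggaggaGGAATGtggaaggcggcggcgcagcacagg
Elf3: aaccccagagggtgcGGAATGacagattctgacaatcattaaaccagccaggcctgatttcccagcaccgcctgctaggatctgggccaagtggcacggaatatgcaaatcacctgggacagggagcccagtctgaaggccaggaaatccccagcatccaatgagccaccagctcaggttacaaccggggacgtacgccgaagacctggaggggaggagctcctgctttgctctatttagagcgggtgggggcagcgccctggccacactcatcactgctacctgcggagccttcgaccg
Klf6: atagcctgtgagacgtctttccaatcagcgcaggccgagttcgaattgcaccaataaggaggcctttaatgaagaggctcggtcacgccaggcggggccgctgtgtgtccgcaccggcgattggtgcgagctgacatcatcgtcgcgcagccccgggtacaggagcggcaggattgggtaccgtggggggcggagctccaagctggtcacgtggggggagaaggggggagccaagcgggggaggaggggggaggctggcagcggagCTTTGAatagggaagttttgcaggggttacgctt
The Cdx2 window held none of the 3 motifs. The Foxo3 window held the TEAD letters on each strand, starting 180 bases before the start and at base 21 after it. In Elf3 they began 235 bases before the start, and in Klf6 the TCF/LEF letters began at base 17 after it. Of all 32851 RefSeq promoter windows 14.7% held GGAATG, 7.81% TGANTCA and 16.0% CTTTGA, and of the 73 windows of members 13.7%, 6.85% and 13.7% did. These matches describe letters and not binding.

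Cdx2, the intestinal identity factor, rose 3.18-fold in Nf2-KO and 3.29-fold in labelled Rasa1-KO, the groups with low Nf2. Its level was 19.6, 15.3 and 12.7 CPM in the controls, 48.1, 50.6 and 52.9 in Nf2-KO, 49.7, 50.9 and 56.1 in labelled Rasa1-KO and 22.4, 20.6 and 19.1 in labelled double-KO. Every Nf2-KO and labelled Rasa1-KO library lay above every control, while the control and labelled double-KO ranges overlapped. The log2 fold change was 1.67 ± 0.15 (SE) in Nf2-KO and 1.72 ± 0.15 in labelled Rasa1-KO, with adjusted p of 4.8e-06 and 6.1e-06, and 0.38 ± 0.14, adjusted p = 0.15 in labelled double-KO. Leaving out the unnumbered control, its highest, Cdx2 rose in labelled double-KO too (log2 0.57 ± 0.11, adjusted p = 0.0032). The gene (gene ID 12591) lies at chr5:147300900-147307249 in GRCm38.p6. Cdx1 and Cdx4 were not analysed here.

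Hnf4a and Hnf4g, which encode nuclear receptors of the endoderm, moved the opposite way in Nf2-KO. Hnf4a was at 142, 105 and 100.4 CPM in the controls, 44.0, 40.5 and 40.7 in Nf2-KO, 64.2, 68.5 and 61.6 in labelled Rasa1-KO and 116, 81.6 and 76.5 in labelled double-KO. The Nf2-KO libraries were the lowest, the labelled Rasa1-KO libraries lay between them and the controls, and labelled double-KO overlapped the controls. Its log2 fold change was -1.47 ± 0.17 (SE, adjusted p = 4.0e-05) in Nf2-KO and -0.84 ± 0.17 (adjusted p = 0.0023) in labelled Rasa1-KO. Both calls held in all 12 fits without 1 library.

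Hnf4g was low throughout, at 0.446, 1.5 and 1.98 CPM in the controls and 0.388, 0.331 and 0.476 in Nf2-KO, where it fell by 1.70 (adjusted p = 0.010), although its highest Nf2-KO value was just above the lowest control. In labelled Rasa1-KO its fold change was -0.27 ± 0.43, adjusted p = 0.63. Neither gene passed the test in labelled double-KO, where the log2 fold change was -0.34 ± 0.17 for Hnf4a and -0.38 ± 0.43 for Hnf4g. Hnf4g fell in labelled Rasa1-KO (log2 -0.69 ± 0.27, adjusted p = 0.043) and labelled double-KO (log2 -0.80 ± 0.27, adjusted p = 0.043) once the unnumbered control was left out. Hnf4a overlaps another annotated RefSeq gene, and the strand setting of the counting is not given in the sources used here, so reads of such neighbours cannot be told apart.

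Among the Foxa pioneer factors, which open chromatin in endoderm, Foxa2 was the most abundant at 27.6 ± 7.17 FPKM in the controls (mean ± SD, n = 3), the scale per length used here to set genes side by side. It was at 82.0, 57.0 and 44.6 CPM in the controls and 42.4, 42.4 and 43.7 in Nf2-KO, so that the lowest control, control 2, nearly met the Nf2-KO range. Foxa2 fell in Nf2-KO (-0.52 ± 0.17, adjusted p = 0.032), a call lost without the unnumbered control (log2 -0.24, adjusted p = 0.054), without any Nf2-KO library, or without labelled double-KO 3, with fold changes of -0.71 to -0.24 over the fits without 1 library. Foxa3 was at 4.81, 1.31 and 1.27 CPM in the controls, the first value being that of the unnumbered library, and at 0.482, 0.331 and 0.511 in Nf2-KO and 0.640, 0.572 and 0.796 in labelled Rasa1-KO. All 6 libraries with low Nf2 lay below the lowest control. The log2 fold change was -2.49 ± 0.56, adjusted p = 0.0041 in Nf2-KO and -1.89 ± 0.54, adjusted p = 0.017 in labelled Rasa1-KO. Without the unnumbered control these became -1.54, adjusted p = 0.0054, and -0.94, adjusted p = 0.056, and the second call was also lost without labelled Rasa1-KO 0 (log2 -1.85, adjusted p = 0.057) or 1 (log2 -1.78, adjusted p = 0.059). Foxa1 was near the floor, at 0.489, 0.817 and 1.53 CPM in the controls and 0.447, 0.285 and 0.116 in Nf2-KO (log2 -1.72 ± 0.62, adjusted p = 0.042), and its call was lost in 8 of the 12 fits without 1 library. Without the unnumbered control Foxa1 fell in Nf2-KO (log2 -2.03 ± 0.59, adjusted p = 0.010) and labelled Rasa1-KO (-1.66 ± 0.58, adjusted p = 0.027).

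Gata6, an endodermal zinc-finger factor, was at 45.9, 54.6 and 62.6 CPM in the controls, 40.0, 39.0 and 36.8 in Nf2-KO, 40.4, 40.7 and 40.3 in labelled Rasa1-KO and 53.7, 64.3 and 64.2 in labelled double-KO. It fell slightly in the groups with low Nf2, whose libraries all lay below the controls (log2 -0.49 ± 0.12, adjusted p = 0.0063, and -0.43 ± 0.12, adjusted p = 0.015). Its partner in the endoderm, Gata4, did not pass the test in any comparison with the controls over all 12 libraries, with log2 fold changes of -0.01 ± 0.17, -0.11 ± 0.17 and -0.31 ± 0.17 in Nf2-KO, labelled Rasa1-KO and labelled double-KO, and fell in the last without the unnumbered control (log2 -0.48 ± 0.13, adjusted p = 0.017). Gata3, a factor of squamous and lymphoid cells, was at 0.414, 2.42 and 2.88 CPM in the controls and 5.36, 3.96 and 3.70 in Nf2-KO (log2 1.20 ± 0.51, adjusted p = 0.078), and the unnumbered control alone held the low value. Without it Gata3 rose (log2 0.72 ± 0.25, adjusted p = 0.026). Gata2 rose in Nf2-KO, from 0.234, 0.667 and 0.496 to 1.41, 1.44 and 1.07 CPM (log2 1.5 ± 0.44, adjusted p = 0.017), named here after its values were seen. Its call was lost without Nf2-KO 2, over fits that gave 1.16 to 1.86. Gata1 and Gata5 were not analysed here.

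Elf3, an epithelium-specific ETS factor, fell in Nf2-KO, and in labelled Rasa1-KO only when the unnumbered control was left out. It was at 46.2, 71.4 and 73.1 CPM in the controls, 22.9, 20.6 and 20.1 in Nf2-KO, 43.5, 51.4 and 44.2 in labelled Rasa1-KO and 45.3, 73.6 and 73.5 in labelled double-KO. Nf2-KO lay apart from every other library, and labelled Rasa1-KO overlapped the lowest, unnumbered, control. The log2 fold changes were -1.58 ± 0.21, adjusted p = 0.00011 in Nf2-KO and -0.46 ± 0.21, adjusted p = 0.097 in labelled Rasa1-KO, and the difference between these groups was itself past the threshold (1.13 ± 0.21, adjusted p = 0.013). The fit without the unnumbered control gave log2 -0.64 ± 0.17, adjusted p = 0.0061 in labelled Rasa1-KO. That difference lost its call without labelled Rasa1-KO 1 (log2 1.05, adjusted p = 0.064), without Nf2-KO 1 (1.19, adjusted p = 0.052), without Nf2-KO 2 (1.11, adjusted p = 0.074) or without Nf2-KO 3 (1.09, adjusted p = 0.069). Elf1 and Elf2, which are broadly expressed, did not pass the test against the controls with all 12 libraries, with log2 fold changes from -0.09 to 0.27 for Elf1 and from -0.06 to 0.02 for Elf2, and Elf1 rose in labelled double-KO without the unnumbered control (log2 0.39 ± 0.10, adjusted p = 0.013).

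The grainyhead-like factors, which control epithelial junctions and barrier, split by gene. Grhl3 was at 4.45, 5.00 and 4.01 CPM in the controls, 2.07, 1.78 and 2.1 in Nf2-KO, 1.44, 1.81 and 2.04 in labelled Rasa1-KO and 6.24, 7.17 and 7.77 in labelled double-KO. The 4 groups fell into 3 levels, with low Nf2 lowest, the controls between, and every labelled double-KO library above every control. Its log2 fold change was -1.18 ± 0.18, adjusted p = 0.00025 in Nf2-KO, -1.35 ± 0.18, adjusted p = 0.00013 in labelled Rasa1-KO and 0.65 ± 0.17, adjusted p = 0.045 in labelled double-KO. The last call was lost in 9 of the 12 fits without 1 library, which gave 0.59 to 0.76. Grhl1 fell in Nf2-KO, from 2.97, 3.89 and 4.31 to 1.72, 1.56 and 2.40 CPM without overlap (log2 -0.97 ± 0.21, adjusted p = 0.0035), and its fold change in labelled Rasa1-KO was -0.22 ± 0.21, adjusted p = 0.41. Grhl2 was lower than Grhl1 and Grhl3 on the FPKM scale in the controls, at 0.508 ± 0.227 against 1.03 ± 0.236 and 1.53 ± 0.157 (mean ± SD, n = 3), and did not pass the test in any group. Ovol1, the only measured Ovol gene, was near the floor, with 8, 2 and 14 counts in the controls, and passed no test.

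**Figure D3:**
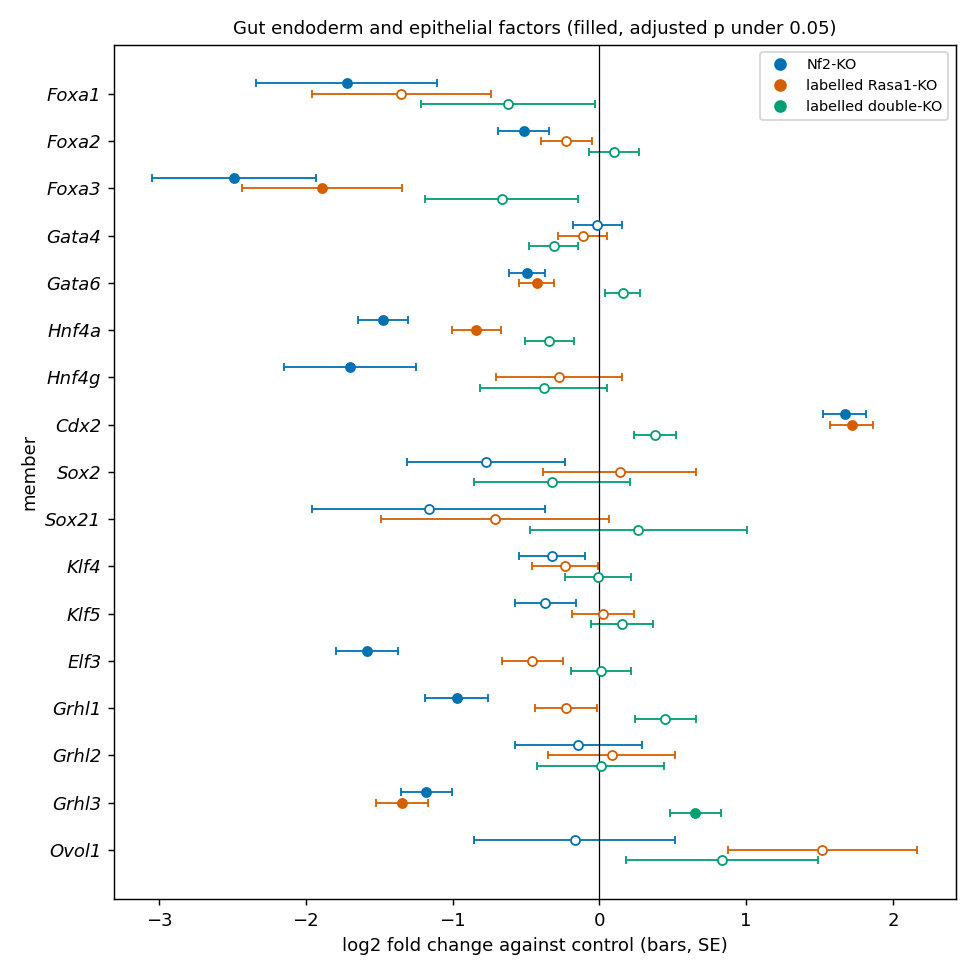
Log2 fold change against control of 17 measured gut endoderm and epithelial factors in Nf2-KO, labelled Rasa1-KO and labelled double-KO, with bars of 1 SE and filled points where the adjusted p of edgeR's quasi-likelihood test was under 0.05. In Nf2-KO 9 fell and Cdx2 alone rose, while in labelled double-KO Grhl3 alone passed the test with all 12 libraries.

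These factors belong to a list of gut endoderm and epithelial factors, of which 17 are reported here and Cdx1, Gata5, Ovol2 and Sox17 were not analysed here. Over the 17, 1 rose and 9 fell in Nf2-KO, 1 rose and 4 fell in labelled Rasa1-KO, and 1 rose and none fell in labelled double-KO. The shares of all genes stand at 20.4% and 22.1%, 19.6% and 22.1%, and 3.98% and 2.42%, so that the 4 lower in labelled Rasa1-KO are near the background. With the unnumbered control left out, 1 rose and 10 fell, 1 rose and 7 fell, and 3 rose and 2 fell. As shares of the 17 these were 5.88% and 58.8%, 5.88% and 41.2%, and 17.6% and 11.8%. The shares of all genes in that fit were 30.6% and 30.9%, 30.2% and 30.2%, and 17.2% and 12.8%. With all libraries the median log2 fold change of the 17 was -0.77, -0.23 and 0.01, against -0.070, -0.076 and -0.035 for all genes. Sox2 and Sox21, factors of the foregut, were near the floor, with 16, 14 and 26 and 4, 11 and 21 counts in the controls, and passed no test. Klf4 and Klf5, which act in epithelial differentiation and proliferation, were well expressed, at 30.2, 52.3 and 62.1 and 16.7, 28.3 and 31.1 CPM in the controls. Neither passed the test with all 12 libraries, with log2 fold changes of -0.32 ± 0.22 and -0.37 ± 0.21 in Nf2-KO. Both fell in Nf2-KO without the unnumbered control (log2 -0.57 ± 0.14, adjusted p = 0.0042; and -0.59 ± 0.14, adjusted p = 0.0030), and Klf4 fell in labelled Rasa1-KO (-0.48 ± 0.14, adjusted p = 0.011).

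The forkhead genes of the gut mesenchyme and its relatives held the largest rise in Nf2-KO, that of Foxs1, and several others. Of the 29 measured Fox genes 6 rose and 10 fell in Nf2-KO (20.7% and 34.5%), beside 20.4% and 22.1% of all genes. In labelled Rasa1-KO 6 rose and 3 fell (20.7% and 10.3%), beside 19.6% and 22.1%, so that the shares that rose lay near the background. Foxf1, a factor of the mesenchyme that answers Hedgehog signals from the epithelium, was at 5.01, 5.70 and 7.26 CPM in the controls, 32.7, 38.3 and 38.1 in Nf2-KO, 30.6, 31.2 and 32.1 in labelled Rasa1-KO and 4.57, 6.64 and 6.79 in labelled double-KO. The groups with low Nf2 lay 6.08-fold and 5.23-fold above the controls without overlap, and labelled double-KO lay on them (log2 2.60 ± 0.18, adjusted p = 7.6e-07; 2.39 ± 0.18, adjusted p = 2.2e-06; and 0.00 ± 0.17, adjusted p = 0.99). The gene lies at chr8:121084386-121088154 in GRCm38.p6. Foxf2, its paralog, was at 12.2, 14.4 and 18 CPM in the controls and 22.3, 23.0 and 23.5 in labelled double-KO, where alone it rose (log2 0.63 ± 0.14, adjusted p = 0.021). That call was lost without control 1 (log2 0.62, adjusted p = 0.064), labelled double-KO 2 (0.62, adjusted p = 0.078) or labelled double-KO 3 (0.63, adjusted p = 0.066). In Nf2-KO the fold change of Foxf2 was -0.05 ± 0.14.

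Foxc1, a factor of mesoderm and neural crest, was at 4.82, 5.26 and 6.43 CPM in the controls, 12.5, 15.3 and 13.3 in Nf2-KO, 15.2, 15 and 14.5 in labelled Rasa1-KO and 3.42, 5.38 and 4.50 in labelled double-KO. It rose in both groups with low Nf2 (log2 1.32 ± 0.17, adjusted p = 9.3e-05; and 1.44 ± 0.17, adjusted p = 6.6e-05). Foxd1, known from stromal progenitors, went from 4.79, 3.14 and 3.81 CPM in the controls to 7.34, 6.63 and 8.26 in Nf2-KO and 8.83, 8.07 and 10.0 in labelled Rasa1-KO, again without overlap (log2 0.92 ± 0.17, adjusted p = 0.0011; and 1.19 ± 0.17, adjusted p = 0.00021). Foxc2, the paralog of Foxc1, went the other way and is named after its values were seen. It fell in Nf2-KO (log2 -2.35, adjusted p = 0.027), a call lost in 3 of the 12 fits without 1 library. Without the unnumbered control its log2 fold change there was -2.82 ± 0.61, adjusted p = 0.0016. Foxs1, a forkhead gene known from pericytes and sensory neurons, had few counts, 42, 20 and 15 in the controls, 244, 237 and 285 in Nf2-KO, 133, 129 and 123 in labelled Rasa1-KO and 7, 12 and 15 in labelled double-KO. Its rise was the largest of all members in Nf2-KO (log2 3.11 ± 0.31, adjusted p = 1.2e-05), and it rose by 2.23 ± 0.30, adjusted p = 0.00016 in labelled Rasa1-KO. In labelled double-KO every library lay below every control, and Foxs1 fell by 1.28 (adjusted p = 0.043), a call lost in 10 of the 12 fits without 1 library, which gave -1.53 to -0.97.

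Markers of other cells moved along with these genes. Of 7 genes listed as fibroblast markers 6 were measured and Lum was not in the tables. In Nf2-KO and in labelled Rasa1-KO the same 5 rose, namely Col1a1, Col1a2, Col3a1, Pdgfra and Pdgfrb, while Dcn fell. Their summed level ran from 22.2 to 184 FPKM in the controls, 1157 to 1236 in Nf2-KO, 397 to 427 in labelled Rasa1-KO and 22.7 to 48.6 in labelled double-KO. Dcn, a defining fibroblast proteoglycan, was at 31.4 ± 14 FPKM in the controls and 18 ± 1.36 in Nf2-KO (mean ± SD, n = 3; log2 -0.72 ± 0.25, adjusted p = 0.037). Of 11 measured gastric or glandular epithelial markers, none rose and 4 fell in Nf2-KO. In labelled Rasa1-KO 4 rose and 3 fell, in opposite directions within the list. Of all genes 20.4% rose and 22.1% fell in Nf2-KO, and 19.6% rose and 22.1% fell in labelled Rasa1-KO. Whether the counts of these short marker lists differ from such shares was not tested. The keratins Krt8 (log2 0.64 ± 0.22, adjusted p = 0.035), Krt18 (log2 0.83 ± 0.20, adjusted p = 0.0065) and Krt19 (log2 0.70 ± 0.16, adjusted p = 0.0042) rose in labelled Rasa1-KO, and in Nf2-KO their log2 fold changes were 0.19 ± 0.22, adjusted p = 0.50, 0.18 ± 0.20, adjusted p = 0.47 and 0.11 ± 0.15, adjusted p = 0.60. The adhesion gene Epcam and the mucins Muc1 and Muc5ac fell in both groups, Epcam from 29.9 ± 2.05 FPKM in the controls to 4.62 ± 0.241 in Nf2-KO and 9.40 ± 0.346 in labelled Rasa1-KO (log2 -2.63 ± 0.19, adjusted p = 1.2e-06; and -1.55 ± 0.18, adjusted p = 6.3e-05). The part of these markers in the rise of the forkhead genes was not tested, and in bulk RNA fewer cells of a type and less RNA per cell cannot be told apart. Of the other lists, blood (Adgre1, Lyz2 and Cd3e not in the tables) had Ptprc at 0.0709 ± 0.0410 FPKM in the controls and 1 of 2 measured genes, Cd68, higher in both groups with low Nf2. Endothelial genes (2 of 4 measured) summed to between 0.186 and 0.390 FPKM in the controls and 0.181 and 0.224 in Nf2-KO.

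The cell line was labelled gastric. Of the listed gastric markers, Gkn1, Gkn2, Muc6 and Pgc were not in the tables, and Muc5ac was at 0.549 ± 0.193 FPKM in the controls. Genes with a count of 0 in any library were left out by the authors, so absence gives no level. Cldn18, Tff1 and Tff2 were measured, and their values are not given here. Of 9 intestinal markers other than Cdx2 5 were measured, of which 1 rose and 3 fell in Nf2-KO and 1 rose and 1 fell in labelled Rasa1-KO. The cadherin Cdh17 rose in Nf2-KO (log2 1.38 ± 0.19, adjusted p = 0.00015) and labelled Rasa1-KO (log2 2.01 ± 0.19, adjusted p = 1.6e-05). The brush-border gene Vil1 fell in both (log2 -1.52 ± 0.11, adjusted p = 1.1e-06; and -0.90 ± 0.11, adjusted p = 6.8e-05). Lgals4, a galectin and the most abundant of the list, fell in Nf2-KO from 125 ± 14.1 to 51.0 ± 1.85 FPKM (log2 -1.22 ± 0.11, adjusted p = 5.2e-06) and had a log2 fold change of -0.08 ± 0.11, adjusted p = 0.57 in labelled Rasa1-KO. Gpa33 fell in Nf2-KO too (log2 -2.41 ± 0.85, adjusted p = 0.039), and Fabp1, Fabp2, Alpi and Reg4 were not in the tables. Of 8 squamous markers 5 were measured, and they did not move together. In Nf2-KO 1 was higher and 2 lower, in labelled Rasa1-KO 1 higher and 1 lower, and in labelled double-KO 3 higher. The shares of all genes higher and lower were 20.4% and 22.1%, 19.6% and 22.1%, and 3.98% and 2.42% in the same order. The small counts of the intestinal and squamous lists were not tested against them. The cornified envelope gene Ivl fell in the groups with low Nf2 (log2 -2.84 ± 0.22, adjusted p = 2.0e-06; and -2.67 ± 0.22, adjusted p = 4.9e-06) and rose in labelled double-KO (log2 0.86 ± 0.20, adjusted p = 0.030). The keratin Krt13 rose in all 3 (log2 1.95 ± 0.25, adjusted p = 7.2e-05; 2.60 ± 0.25, adjusted p = 1.5e-05; and 1.02 ± 0.24, adjusted p = 0.030). The basal keratin Krt14 fell in Nf2-KO (log2 -2.16 ± 0.49, adjusted p = 0.0045) and rose in labelled double-KO (log2 2.78 ± 0.48, adjusted p = 0.0060).

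Foxo3, a forkhead factor restrained by AKT, was the single factor to rise in all 3 knockout groups with all 12 libraries. It was at 110.1, 112 and 111 CPM in the controls, 208, 204 and 191 in Nf2-KO, 171, 179.7 and 171 in labelled Rasa1-KO and 159, 144 and 144 in labelled double-KO. The groups did not overlap, and the controls were the lowest and closest together. Its log2 fold change was 0.86 ± 0.08, adjusted p = 9.3e-06 in Nf2-KO, 0.65 ± 0.08, adjusted p = 0.00010 in labelled Rasa1-KO and 0.43 ± 0.08, adjusted p = 0.010 in labelled double-KO, and each call held in all 12 fits without 1 library. Of the other Foxo genes, Foxo4 passed no test, at -0.24 ± 0.12 in Nf2-KO. Foxo1 spread from 13.9, 49.5 and 78.0 CPM in the controls (the unnumbered library lowest) and fell in Nf2-KO (log2 -1.34 ± 0.47, adjusted p = 0.039), a call lost in 8 of the 12 fits without 1 library, and Foxo6 fell there too (log2 -0.58 ± 0.16, adjusted p = 0.013), a call lost without Nf2-KO 2 or 3. These 2 genes are named after their values were seen. Without the unnumbered control Foxo1 fell in Nf2-KO (log2 -1.77 ± 0.26, adjusted p = 9.5e-05) and labelled Rasa1-KO (-1.61 ± 0.26, adjusted p = 0.00022). Foxk2, a metabolic forkhead repressor and among the most abundant Fox genes, rose slightly in Nf2-KO (0.44 ± 0.09, adjusted p = 0.0022) and in labelled Rasa1-KO (0.33 ± 0.09, adjusted p = 0.013), the latter not without labelled Rasa1-KO 0 (log2 0.31, adjusted p = 0.050). Foxq1, a target of Wnt and TGF-beta signals in epithelia, fell in both, from 25.7, 27.0 and 31.3 CPM in the controls to 14.5, 15.1 and 16.0 in Nf2-KO and 18.6, 20.1 and 18.6 in labelled Rasa1-KO (log2 -0.88 ± 0.11, adjusted p = 4.7e-05; and -0.55 ± 0.10, adjusted p = 0.0016). In labelled double-KO Foxq1 stood at 38.3, 36.8 and 33.3 CPM, above every control (log2 0.37 ± 0.10, adjusted p = 0.061, and 0.31 ± 0.10, adjusted p = 0.034 without the unnumbered control).

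**Figure D4:**
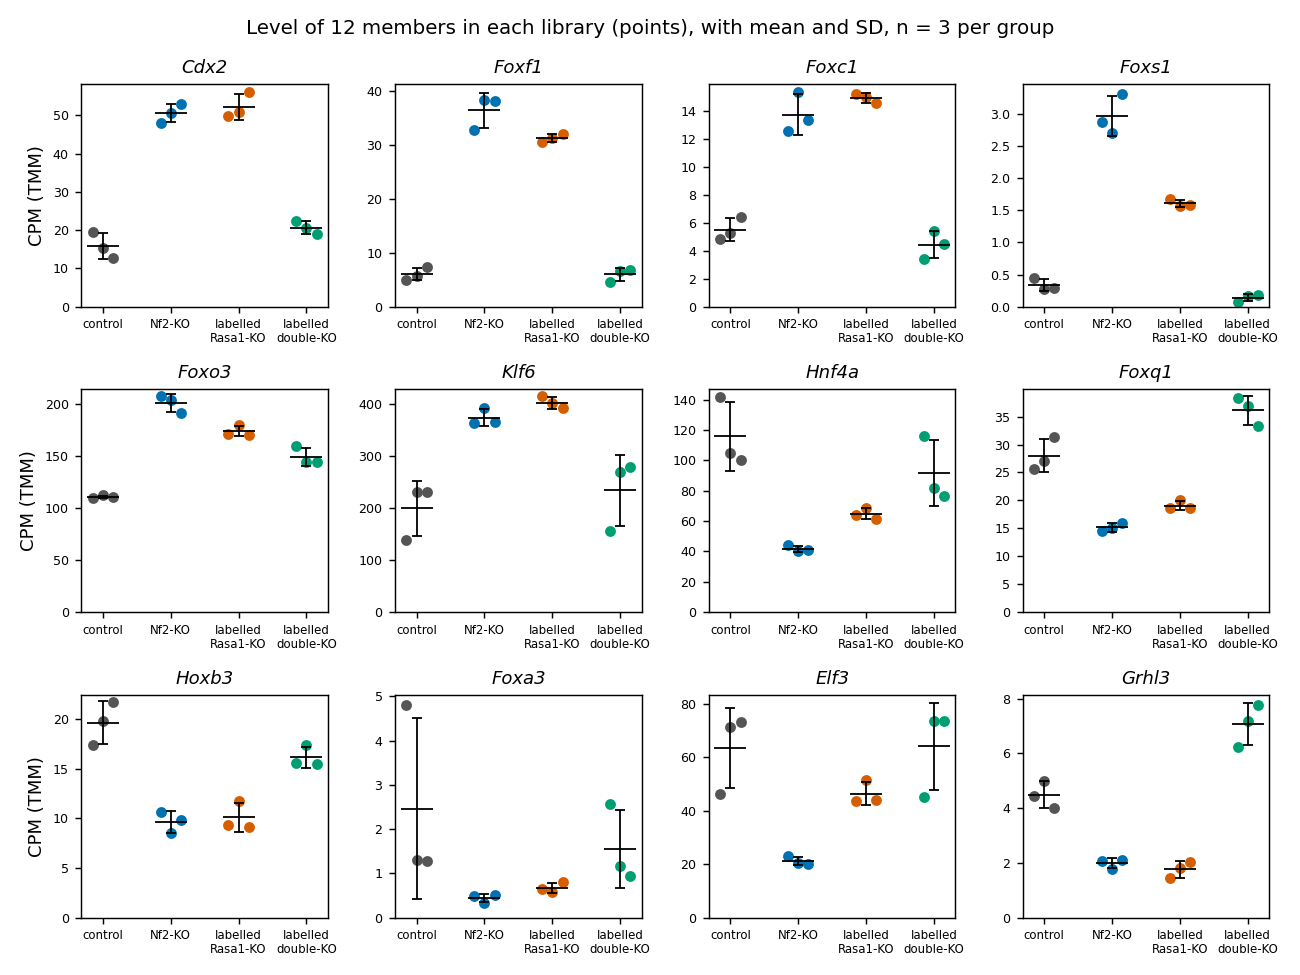
CPM of 12 members in each library (points), with the group mean and SD (bars, n = 3) and every axis starting at 0. Cdx2, Foxf1, Foxc1 and Foxs1 stand high in Nf2-KO and labelled Rasa1-KO, Hnf4a and Elf3 are lowest in Nf2-KO, and Foxo3 is lowest in the controls.

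Of 14 measured Klf genes, which encode zinc-finger factors of proliferation and differentiation, 1 rose and 3 fell in Nf2-KO, and 3 rose and 2 fell in labelled Rasa1-KO. As shares these were 7.14% and 21.4%, and 21.4% and 14.3%, beside 20.4% and 22.1%, and 19.6% and 22.1%, of all genes, so that they lay near or below the background. Without the unnumbered control 1 rose and 7 fell in Nf2-KO (7.14% and 50.0%), and 3 rose and 5 fell in labelled Rasa1-KO (21.4% and 35.7%). The shares of all genes in that fit were 30.6% and 30.9%, and 30.2% and 30.2%. Klf6, a wound- and growth-responsive factor, had the highest level of all 91 factors in the controls, 45.7 ± 13.8 FPKM (mean ± SD, n = 3). It was at 138, 230.1 and 229.8 CPM in the controls, 363, 391 and 365 in Nf2-KO, 414, 400.4 and 391 in labelled Rasa1-KO and 155, 268 and 278 in labelled double-KO. The unnumbered control and labelled double-KO 1 were low, and all 6 libraries with low Nf2 lay above the rest (log2 0.90 ± 0.23, adjusted p = 0.0075; and 1.01 ± 0.23, adjusted p = 0.0044). Klf13 fell, from 52.7, 90.5 and 116 CPM in the controls to 48.4, 42.1 and 37.2 in Nf2-KO and 42.1, 50.8 and 39.7 in labelled Rasa1-KO (log2 -1.02 ± 0.23, adjusted p = 0.0042; and -0.97 ± 0.23, adjusted p = 0.0062). Klf3, a repressor, fell from 77.0, 104 and 112 CPM to 59.2, 51.6 and 48.3 in Nf2-KO (log2 -0.88 ± 0.14, adjusted p = 0.00049) and to 66.6, 74.6 and 60.7 in labelled Rasa1-KO (-0.54 ± 0.14, adjusted p = 0.011), the latter not without labelled Rasa1-KO 2 (log2 -0.46, adjusted p = 0.053). Klf10, an abundant factor induced by TGF-beta, passed no test with all 12 libraries, at -0.17 ± 0.21 in Nf2-KO, and fell there without the unnumbered control (log2 -0.38 ± 0.15, adjusted p = 0.046).

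Sox genes, which encode HMG-box factors of progenitor cells, seldom passed a test with all 12 libraries. Of 11 measured, none rose in any group, 1 fell in Nf2-KO and 1 in labelled double-KO (9.09% each, beside 22.1% and 2.42% of all genes). Without the unnumbered control 1 rose and 3 fell in Nf2-KO (9.09% and 27.3%), and 2 rose and 3 fell in labelled Rasa1-KO (18.2% and 27.3%). In labelled double-KO 4 fell (36.4%). The shares of all genes in that fit were 30.6% and 30.9%, 30.2% and 30.2%, and 17.2% and 12.8%. Sox4, a widespread progenitor factor, was the most abundant at 40.8 ± 6.46 FPKM in the controls, and its log2 fold changes were -0.02 ± 0.14, 0.16 ± 0.14 and -0.16 ± 0.14. When the unnumbered control was left out, it rose in labelled Rasa1-KO (log2 0.34 ± 0.09, adjusted p = 0.0062), and Sox6 fell in all 3 groups (log2 -2.17 ± 0.43, adjusted p = 0.00089; -1.60 ± 0.43, adjusted p = 0.0061; and -2.31 ± 0.44, adjusted p = 0.0028). Sox11, a close relative of Sox4, was at 17.8, 7.94 and 12.5 CPM in the controls, 23.4, 24.6 and 21.5 in Nf2-KO, 23.4, 23.0 and 23.8 in labelled Rasa1-KO and 8.17, 3.71 and 3.37 in labelled double-KO. The groups with low Nf2 lay above the controls without passing the test (0.86 ± 0.33, adjusted p = 0.053; and 0.87 ± 0.33, adjusted p = 0.050) unless the unnumbered control was left out (log2 1.19 ± 0.31, adjusted p = 0.0052; and 1.21 ± 0.31, adjusted p = 0.0049), and Sox11 fell in labelled double-KO (-1.32 ± 0.33, adjusted p = 0.038), a call lost in 9 of the 12 fits without 1 library, which gave -1.85 to -0.99. Sox13 fell in Nf2-KO, from 4.24, 7.47 and 7.54 to 4.41, 4.03 and 3.55 CPM with the unnumbered control inside the lower range (log2 -0.68 ± 0.20, adjusted p = 0.017). This call was lost without control 1 (log2 -0.56, adjusted p = 0.073), control 2 (-0.57, adjusted p = 0.059), Nf2-KO 2 (-0.68, adjusted p = 0.051) or Nf2-KO 3 (-0.60, adjusted p = 0.073). Without the unnumbered control Sox13 fell in Nf2-KO (log2 -0.91 ± 0.13, adjusted p = 6.1e-05) and labelled Rasa1-KO (-0.56 ± 0.13, adjusted p = 0.0022).

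Hox RNA came almost wholly from the HoxB cluster. Its 9 measured genes held 96.4% of the summed Hox FPKM in the controls (mean over libraries), 95.6% in Nf2-KO, 94.9% in labelled Rasa1-KO and 97.4% in labelled double-KO. The summed HoxB level was 62.5 ± 7.29 FPKM in the controls, 49.5 ± 1.48 in Nf2-KO, 47.4 ± 2.37 in labelled Rasa1-KO and 62.4 ± 8.52 in labelled double-KO (mean ± SD, n = 3). By gene, Hoxb9 (16.0 ± 3.28 FPKM), Hoxb7 (15.4 ± 3.67) and Hoxb6 (13.3 ± 2.07) led in the controls and did not differ beyond their SDs. The cluster lies on chromosome 11, from Hoxb13 at chr11:96194316-96196610 to Hoxb2 at chr11:96351632-96354020 in GRCm38.p6. Hoxb2, Hoxb3, Hoxb4, Hoxb5 and Hoxb6 overlap a neighbouring or antisense gene there, so their counts may share reads.

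In all, 5 genes inside the cluster fell in both groups with low Nf2, and no other measured HoxB gene did. These are 55.6% of its 9 measured genes, beside 22.1% of all genes lower in each group. Over the 20 measured Hox genes 2 rose and 5 fell in Nf2-KO (10% and 25%), beside 20.4% and 22.1%. In labelled Rasa1-KO 3 rose and 5 fell (15% and 25%), beside 19.6% and 22.1%. The Hox shares that fell thus lay near the background. Without the unnumbered control 50.0% and 30.0% of the 20 fell, beside 30.9% and 30.2% of all genes. Hoxb3 was at 17.4, 19.8 and 21.7 CPM in the controls, 10.7, 8.48 and 9.83 in Nf2-KO, 9.37, 11.8 and 9.12 in labelled Rasa1-KO and 15.6, 17.4 and 15.4 in labelled double-KO (log2 -1.02 ± 0.14, adjusted p = 0.00013; and -0.96 ± 0.14, adjusted p = 0.00026). Hoxb4 was at 9.06, 7.96 and 7.22 CPM in the controls, 5.30, 5.41 and 5.69 in Nf2-KO and 5.46, 4.66 and 5.95 in labelled Rasa1-KO (log2 -0.57 ± 0.15, adjusted p = 0.011; and -0.59 ± 0.15, adjusted p = 0.0093). Neither gene's low-Nf2 libraries overlapped the controls. Hoxb5 went from 3.94, 7.92 and 10.4 CPM in the controls to 2.92, 2.16 and 2.36 in Nf2-KO and 2.51, 2.52 and 2.18 in labelled Rasa1-KO (log2 -1.58 ± 0.30, adjusted p = 0.0014; and -1.62 ± 0.30, adjusted p = 0.0013). Hoxb6 went from 27.2, 20.0 and 18.6 CPM in the controls to 13.9, 14.3 and 13.8 and 13.2, 12.9 and 14.4 (log2 -0.65 ± 0.17, adjusted p = 0.0097; and -0.70 ± 0.17, adjusted p = 0.0070). For these genes too every library with low Nf2 lay below every control.

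Hoxb8 was the least settled of the 5, at 3.42, 6.10 and 11.6 CPM in the controls, 2.90, 2.13 and 2.28 in Nf2-KO and 2.47, 3.37 and 2.62 in labelled Rasa1-KO (log2 -1.52 ± 0.35, adjusted p = 0.0050; and -1.31 ± 0.35, adjusted p = 0.012). Without control 2, its highest library, the fold changes were -0.98, adjusted p = 0.012, and -0.77, adjusted p = 0.040. Hoxb7 and Hoxb9 passed no test with all 12 libraries, with log2 fold changes of -0.21 ± 0.17 and 0.25 ± 0.20 in Nf2-KO and -0.12 ± 0.17 and -0.16 ± 0.20 in labelled Rasa1-KO. Hoxb2 was low, at 0.244, 0.449 and 0.397 CPM in the controls, and its fold change of 0.89 ± 0.42, adjusted p = 0.11 in Nf2-KO did not pass the test. Hoxb13, the cluster's outlying gene and a factor of the hindgut and prostate, was at 7.52, 4.44 and 2.64 CPM in the controls, 5.27, 6.22 and 7.23 in Nf2-KO, 12.1, 12.4 and 13.5 in labelled Rasa1-KO and 8.06, 6.02 and 5.60 in labelled double-KO. It rose in labelled Rasa1-KO, whose libraries stood above all others (1.37 ± 0.30, adjusted p = 0.0041), and the difference between labelled Rasa1-KO and Nf2-KO did not pass the test (1.02 ± 0.30, adjusted p = 0.095). With all 12 libraries no HoxB gene passed the test in labelled double-KO against the controls. In the fit without the unnumbered control Hoxb6 (log2 0.51 ± 0.15, adjusted p = 0.023), Hoxb7 (0.35 ± 0.11, adjusted p = 0.035) and Hoxb13 (0.88 ± 0.23, adjusted p = 0.013) rose there and Hoxb5 (-0.90 ± 0.19, adjusted p = 0.0051) fell, and in Nf2-KO Hoxb9 (0.48 ± 0.16, adjusted p = 0.023) and Hoxb13 (0.81 ± 0.23, adjusted p = 0.0080) rose.

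**Figure D5:**
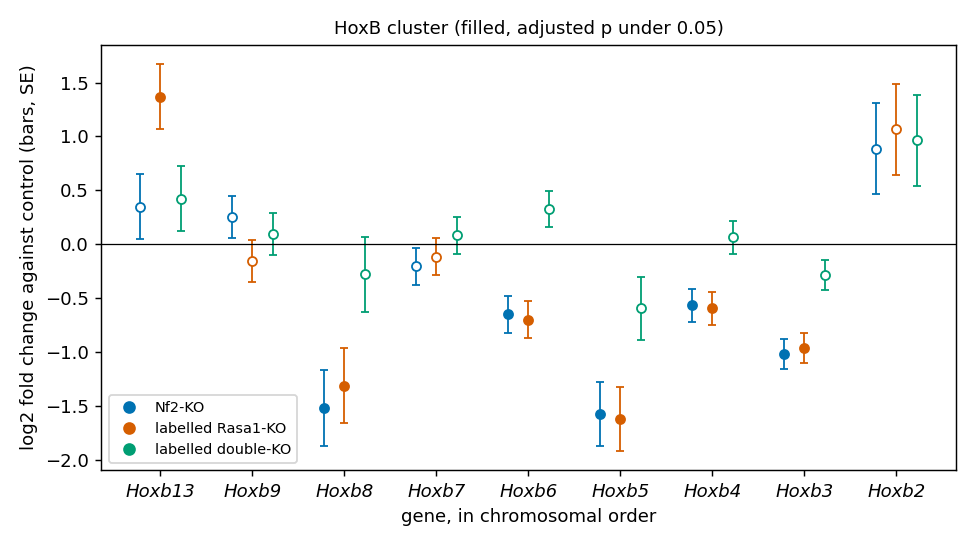
Log2 fold change against control of the 9 measured HoxB genes in the order of their starts on the chromosome, except that Hoxb4 begins inside the span of Hoxb3, for the 3 knockout groups, with bars of 1 SE and filled points where the adjusted p was under 0.05. Hoxb8, Hoxb6, Hoxb5, Hoxb4 and Hoxb3 lie below 0 in Nf2-KO and labelled Rasa1-KO, Hoxb7 and Hoxb9 lie near 0, and Hoxb13 is high in labelled Rasa1-KO.

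In the other clusters levels were low. Hoxa5 had 6, 11 and 7 counts in the controls, 49, 34 and 37 in Nf2-KO, 34, 45 and 31 in labelled Rasa1-KO and 11, 14 and 18 in labelled double-KO. It rose in both groups with low Nf2 (log2 2.00 ± 0.40, adjusted p = 0.0021; and 1.98 ± 0.41, adjusted p = 0.0025). Hoxa6, its neighbour, had 5, 8 and 11 counts in the controls, 76, 45 and 55 in Nf2-KO and 35, 36 and 26 in labelled Rasa1-KO, and rose in both as well (log2 2.49 ± 0.51, adjusted p = 0.0022; and 1.74 ± 0.51, adjusted p = 0.018). The latter call was lost without control 1 (log2 1.67, adjusted p = 0.062) or labelled Rasa1-KO 0 (1.67, adjusted p = 0.050). Both lie inside the annotated span of Hoxa3 and an antisense gene. Hoxa3, Hoxa9 and Hoxa10 passed no test, and Hoxa10 led the cluster at 0.933 ± 0.0713 FPKM in the controls (mean ± SD, n = 3). The 5 HoxC genes measured, Hoxc4, Hoxc5, Hoxc6, Hoxc8 and Hoxc9, summed to 0.772 ± 0.742 FPKM in the controls, with the unnumbered library the lowest control for each. None passed a test with all 12 libraries, a result that rests on that library. Without it, Hoxc5 (log2 -1.54 ± 0.63, adjusted p = 0.048), Hoxc6 (-2.08 ± 0.57, adjusted p = 0.0073), Hoxc8 (-2.34 ± 0.57, adjusted p = 0.0035) and Hoxc9 (-1.45 ± 0.53, adjusted p = 0.031) fell in Nf2-KO, the same genes fell in labelled double-KO (-2.33 ± 0.66, adjusted p = 0.021; -2.25 ± 0.58, adjusted p = 0.013; -2.34 ± 0.57, adjusted p = 0.011; and -2.18 ± 0.55, adjusted p = 0.013), and Hoxc8 fell in labelled Rasa1-KO (-1.61 ± 0.55, adjusted p = 0.023). Hoxd4, the single HoxD gene measured, had 2, 8 and 16 counts in the controls and 17, 39 and 22 in labelled double-KO (1.23 ± 0.74, adjusted p = 0.38). It fell in Nf2-KO only without the unnumbered control (log2 -2.51 ± 0.74, adjusted p = 0.011).

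The libraries labelled double-KO and those labelled Rasa1-KO were both low in Rasa1 and differed in Nf2, which was 4.96-fold higher in the former. They also differed in Rasa1 itself, which was 1.55-fold lower in labelled double-KO (log2 -0.63 ± 0.13, adjusted p = 0.0034). Of the 91 factors 16 were higher in labelled double-KO and 12 lower, beside 16.1% and 13.9% of all genes, and the median log2 difference was -0.01 against 0.005. Grhl3 (2.00 ± 0.18, adjusted p = 1.7e-05), Foxq1 (0.92 ± 0.11, adjusted p = 9.1e-05), Hoxb6 (1.03 ± 0.17, adjusted p = 0.0011) and Gata6 (0.59 ± 0.12, adjusted p = 0.0038) were higher. Cdx2 (-1.34 ± 0.14, adjusted p = 6.4e-05), Foxf1 (-2.38 ± 0.18, adjusted p = 4.7e-06), Foxc1 (-1.75 ± 0.17, adjusted p = 3.6e-05), Foxs1 (-3.50 ± 0.33, adjusted p = 2.3e-05) and Sox11 (-2.20 ± 0.34, adjusted p = 0.00071) were lower. Each of these calls held in all 12 fits without 1 library. Of genes named after their values were seen, Klf12 was at 2.44, 1.95 and 1.82 CPM in labelled Rasa1-KO and 9.81, 15.3 and 16.4 in labelled double-KO (2.74 ± 0.61, adjusted p = 0.0059), with 0.935, 7.62 and 9.74 in the controls. Foxl1, a factor of the mesenchymal cells beneath the gut epithelium, was at 2.03, 2.90 and 2.96 CPM in labelled Rasa1-KO and 0.109, 0.375 and 0.176 in labelled double-KO (-3.59 ± 0.85, adjusted p = 0.0087), with 0.0319, 0.762 and 1.35 in the controls. Without the unnumbered control the log2 fold change of Foxl1 against the controls was 0.57 ± 0.40, adjusted p = 0.23 in Nf2-KO. In labelled Rasa1-KO it was 1.33 ± 0.41, adjusted p = 0.013, and in labelled double-KO -2.26 ± 0.44, adjusted p = 0.0032.

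Partners and related factors were read in the same way. Of 9 Hox cofactors of the Meis, Pbx and Pknox families 8 were measured, and in Nf2-KO Meis1 (0.83 ± 0.20, adjusted p = 0.0053) and Pbx3 (0.46 ± 0.17, adjusted p = 0.042) rose. In labelled Rasa1-KO Meis2 (-0.36 ± 0.08, adjusted p = 0.0055) and Meis3 (-0.88 ± 0.20, adjusted p = 0.0052) fell, and none passed in labelled double-KO. Of 20 further gut developmental factors 13 were measured. None of them rose in Nf2-KO or labelled Rasa1-KO, and 6 and 5 fell, with a median log2 fold change of -1.18 and -0.79, beside 22.1% and 22.1% of all genes lower and all-gene medians of -0.070 and -0.076. Hhex, a factor of foregut and liver buds, fell from 24.0 ± 3.88 FPKM in the controls to 7.48 ± 0.808 in Nf2-KO and 8.57 ± 0.825 in labelled Rasa1-KO (mean ± SD, n = 3; log2 -1.61 ± 0.12, adjusted p = 1.1e-06; and -1.35 ± 0.12, adjusted p = 5.9e-06). Onecut2, a cut-homeodomain factor of endoderm, fell as well (log2 -2.78 ± 0.46, adjusted p = 0.00059; and -2.23 ± 0.45, adjusted p = 0.0025), as did Tcf7l2, which carries Wnt signals (log2 -2.05 ± 0.62, adjusted p = 0.021; and -2.04 ± 0.62, adjusted p = 0.021). The controls of Onecut2 and Tcf7l2 spread widely, at 21.5 ± 14.1 and 8.96 ± 7.23 FPKM, beside 2.92 ± 1.01 and 2.00 ± 0.97 in Nf2-KO. Fits without the unnumbered control are not given for these further factors. Pdx1, the factor of antrum, duodenum and pancreas, was at 10.6 ± 2.86 FPKM in the controls and 9.78 ± 0.581 in Nf2-KO (log2 -0.07 ± 0.21, adjusted p = 0.80). In labelled double-KO 1 of the 13 fell, Nr5a2 (log2 -2.16 ± 0.37, adjusted p = 0.0054), and none rose.

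The study's own rule, a fold of at least 3 with a raw p under 0.05, was applied here to the edgeR fit, whereas the study used DESeq2. By this rule 15 members were called in Nf2-KO, 10 in labelled Rasa1-KO and 4 in labelled double-KO, beside 11.4%, 9.26% and 2.02% of all genes. Between labelled double-KO and labelled Rasa1-KO it called 11, beside 5.64%. Cdx2, Foxf1, Foxs1, Hoxa5 and Hoxa6 were called as higher in both groups with low Nf2. With folds taken before rounding, this rule drops Hnf4a, Elf3 and Grhl3, whose folds in Nf2-KO were 2.77, 3.00 and 2.26, and it adds low genes such as Sox6, whose controls were at 0.606, 1.85 and 6.77 CPM.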

How the data were processed

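Gene-level RNA-seq values of 12 libraries, 3 per group by the sample labels, were analysed. Per the study's methods and the submitters' processing notes, ribosome-depleted stranded total RNA was sequenced, reads were trimmed with Trimmomatic 0.38 and aligned to mm10 with HISAT2 2.1.0, alignments were sorted with SAMtools 1.9, and RefSeq genes were quantified with StringTie 2.1.3b. The deposited counts are raw read counts per gene, and the authors left out genes with a count of 0 in any library, so the lowest count is 1 and a factor silent in any library is missing. The deposited FPKM values were scaled per length and depth by the authors, and were used only to set genes side by side. The deposited TPM and normalized columns were not used.

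Counts were tested with edgeR 4.0.16 (filterByExpr, TMM, glmQLFit and glmQLFTest) in R 4.3.3, in a single model of the 4 group means, and p-values were adjusted by Benjamini-Hochberg over all 18053 genes tested. The SE of a log2 fold change was its size divided by the root of the F statistic. The fit was tested on simulated counts with known changes. Named genes were the 8 members called higher and the 8 called lower with the smallest adjusted p against the controls, the gut endoderm and epithelial factors, every measured Hox gene, and the 3 members of each family with the highest FPKM in the controls. Other members, among them Klf9, Klf16, Sox6 and Foxo4, were named after their values were seen. The members and lists were chosen with earlier results of these data known. Alternatives were RLE size factors, DESeq2 1.42.0, no filter, a block on replicate numbers, fits of only the groups compared, fits without each library or without both unnumbered tables, and the study's rule for calls. The results of some genes are not reported here, although counts over all members include them.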

Additional observations from a re-analysis of the deposited data

How the results depend on the processing

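No result reversed. Counts under RLE size factors stayed within 1.5 times the reported ones, as did those without the filter, except that 1 factor in place of 2 fell in labelled double-KO. When only the groups compared were fitted, 9 in place of 16 fell in labelled Rasa1-KO, 17 in place of 28 fell in Nf2-KO, 0 rose and 0 fell in labelled double-KO, 23 in place of 12 were lower in labelled double-KO than in labelled Rasa1-KO, and 19 were higher and 8 lower in labelled Rasa1-KO than in Nf2-KO, in place of 2 and 0. With DESeq2 the last pair was 9 and 1. By raw p under 0.05 in edgeR, 14 factors differed between these groups in either direction. By the study's rule 10 in place of 29 were called in labelled Rasa1-KO, 15 in place of 39 in Nf2-KO, and 11 in place of 28 between labelled double-KO and labelled Rasa1-KO.

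Leaving out both unnumbered tables, the unnumbered control and labelled double-KO 1, gave 35 lower in labelled Rasa1-KO, 46 lower in Nf2-KO, 11 higher and 17 lower in labelled double-KO, 27 higher and 21 lower in labelled double-KO than in labelled Rasa1-KO, 15 higher and 6 lower in labelled Rasa1-KO than in Nf2-KO, and 69 over the 4 groups. Without each library in turn, 10 to 16 rose and 14 to 30 fell in labelled Rasa1-KO, 10 to 15 rose and 18 to 41 fell in Nf2-KO, 1 to 13 rose and 0 to 19 fell in labelled double-KO, 9 to 24 were higher and 8 to 21 lower in labelled double-KO than in labelled Rasa1-KO, 0 to 10 were higher and 0 to 2 lower in labelled Rasa1-KO than in Nf2-KO, and 35 to 64 differed over the 4 groups. The calls of 63 of 85 named results held in all of these fits. Shares of all genes called are not given for these alternatives, apart from those above without the unnumbered control and by the study's rule. Without the unnumbered control the shares of all genes rose too, so the shifts are not shown to be particular to these factors. The cause of these shifts was not tested.

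Same-numbered libraries did not deviate together throughout. Their correlations over pairs ran from -0.379 to 0.399 by the numbers of the labels and from -0.0552 to 0.626 by those of the table names, so the libraries share only a number. With the replicate block by label numbers, 1 rose and 0 fell in labelled double-KO, 9 in place of 16 were higher in labelled double-KO than in labelled Rasa1-KO, and 1 in place of 2 was higher in labelled Rasa1-KO than in Nf2-KO. With the block by table names, 8 rose and 8 fell in labelled double-KO, and 8 were higher and 2 lower in labelled Rasa1-KO than in Nf2-KO. Of the 85 named results 14 lost their call under the former block and 1 under the latter.

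With 3 technical libraries a group, of which the controls spread most, modest changes in labelled double-KO could not be settled, and low genes such as Hoxa5 rest on few counts.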
